A study of Mus musculus with 87 samples.

Results

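Mouse embryonic stem cells (ESC) that had lost Suz12 and were rescued with the short Suz12 isoform carrying the 3D mutation (KO-S3D, 2 samples) were compared with wild-type ESC (WT, 3 samples) across all genes with a deposited mean level (baseMean, the mean of read counts divided by size factors) of at least 10. This kept 14924 of 26171 gene symbols. The genes just inside this limit were Gm19345, Lbp and Cyp26b1, with a baseMean of 10, 10.01 and 10.02 in the authors' deposited table, and those just outside were Mylk, Gm35137 and Prss12, with 9.996, 9.976 and 9.973. All groups were ESC of the line 129-B13 grown in medium with 20% serum and LIF. KO-S3D cells carry a full Suz12 knock-out and express the short isoform from the Rosa26 locus, a mouse site often used to hold transgenes. The 3D mutation lies at position 196, downstream of exon 4, and its amino acid change is not given in the sources used here. KO-S (2 samples) is the knock-out rescued with the short isoform and KO-L3D (2) the knock-out rescued with the long isoform carrying the 3D mutation. KO (3) is the full knock-out with no rescue. Whether samples of a group came from separate clones or separate cultures is not stated, so p-values may measure only technical spread.

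Suz12 is a core subunit of Polycomb repressive complex 2 (PRC2), in which Ezh2 or Ezh1 methylates lysine 27 of histone H3 (H3K27me3) with the help of Eed. In ESC this mark covers the CpG-rich promoters of developmental regulators, which are held at low levels until the cells differentiate. Accessory subunits such as Phf1, Mtf2, Phf19, Jarid2, Aebp2 and Epop bind Suz12 and define variants of the complex, and the short and long isoforms of Suz12 differ by exon 4.

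Whole read numbers of each library were recovered from the deposited means, and a normalised read number below is such a read number divided by the library's size factor. Between 15094315 and 19358103 reads were recovered per library, without the 438 genes above a baseMean of 10000, for which none were recovered. For most genes the deposited fold change was close to the mean of the log2 ratios of 2 pairs of libraries, here called pair A and pair B. This cannot hold where a WT library of a pair has 0 reads. The third WT library had no KO-S3D partner and had little part in these fold changes. The libraries of one group were not alike. Of 14486 genes with recovered reads, 719 (4.96%) were over 4-fold higher in the pair A than in the pair B KO-S3D library and 45 (0.311%) over 4-fold lower. Among the WT libraries, the one of pair B was over 4-fold above both others in 132 genes and over 4-fold below both in 61. Results below are therefore given by pair. The series text counts its RNA-seq samples as 14 and 18 without naming the samples of each, so whether WT and KO-S3D libraries were prepared together is not stated.

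Markers of ESC and of other cell types were summed in each library. All 7 ESC markers had a baseMean of at least 10, and none was called in the authors' deposited table, where 1 had an unadjusted p under 0.05. Pou5f1, the defining factor of pluripotent cells, had a log2 fold change of 0.06 ± 0.34 (SE) in the authors' deposited table. The sum of 4 trophoblast markers was 303, 177 and 368 normalised reads in WT (pair A, pair B and the library without a partner, the order used throughout) against 5669 and 96 in KO-S3D (pair A, pair B). Of 4 mesoderm markers 2 had recovered reads, Hand1 and Mixl1, and their sum was 81, 31 and 73 in WT against 4986 and 71. The sum of 4 endoderm markers was 73, 1680 and 69 in WT against 1579 and 496. The pair A KO-S3D library was above all WT libraries for the trophoblast and mesoderm sums. Nearly all of its mesoderm reads came from Hand1, also a trophoblast factor, so the mesoderm sum rests on that gene. In this library and in WT, most trophoblast reads came from the keratin gene Krt7, so the trophoblast sum rests largely on it. Krt7 had a baseMean of 1121, against 132 for Gata3, 45.1 for Cdx2 and 24.3 for Elf5. For endoderm the pair A KO-S3D library was close to the WT library of pair B. Neural markers summed to between 1929 and 5197 in WT and to 2070 and 811 in KO-S3D. Of 7 fibroblast markers, which would mark feeder cells, 4 had recovered reads. They summed to between 268 and 477 in WT and to 256 and 88 in KO-S3D, with Lum under 1. Of 3 blood markers only Cd68 had recovered reads, between 193 and 532 in all 5 libraries, with Hba-a1 under 1. Germ cell markers summed to between 1617 and 3446 in WT and to 1112 and 1478 in KO-S3D. The part of other cell types in the results was not tested. In bulk RNA, more cells of a type and more RNA per cell cannot be told apart.

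Suz12 (chr11:79993106-80034123, build GRCm38.p6) was examined first, as the targeted gene. It had 5608, 8337 and 4296 normalised reads in WT and 4577 and 9370 in KO-S3D. The groups overlapped, with a log2 fold change of -0.06 ± 0.42 (adjusted p 0.974) in the authors' deposited table. In the knock-out without rescue the normalised reads were 1584, 2445 and 1186, in KO-L3D 1509 and 2401, and in KO-S 3849 and 3823. Reads from the endogenous gene and from the rescue cannot be told apart in these values. The libraries labelled KO-S3D had a Suz12 level within the WT range or above it, which those labelled KO, KO-L3D and KO-S did not reach.

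Of the 12 PRC2 subunits, 2 rose, none fell and the others did not pass the test, in a table in which 1.96% of genes were called higher, 1.13% lower and 3.1% either way at an adjusted p under 0.05. Unadjusted p-values under 0.05 were found for 6 of the 12. Of the 9 with recovered reads, limma without a block called 2 higher and 1 lower. Epop, which links PRC2 to Elongin BC, had 6115, 4125 and 3835 normalised reads in WT and 12092 and 14909 in KO-S3D, a rise of 1.42 ± 0.34 (adjusted p 0.00297) in the authors' deposited table. Phf1, a Tudor-domain subunit, had 55, 139 and 78 in WT and 356 and 386 in KO-S3D, a rise of 2.08 ± 0.58 (adjusted p 0.0182) in the authors' deposited table. Both KO-S3D libraries lay above all WT libraries for both genes, and both pairs rose. Ezh2, the main methyltransferase in ESC, had a log2 fold change of -0.42 ± 0.35 (adjusted p 0.647) in the authors' deposited table. Eed stood at -0.24 ± 0.37 (adjusted p 0.854) and Mtf2 at -0.30 ± 0.36 (adjusted p 0.794) in the authors' deposited table. None of the 19 subunits of PRC1, the complex that ubiquitinates histone H2A, was called by the authors' test, 1 had an unadjusted p under 0.05, and limma without a block called none of the 18 with reads.

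Across all 14924 genes, 293 were called higher and 169 lower, and 2046 had an unadjusted p under 0.05 in the authors' deposited table. The median log2 fold change of all genes was -0.03. Called higher genes had a median of 2.12 and called lower genes of -1.83 in the authors' deposited table. In KO-L3D, 246 of the 293 and 141 of the 169 were called the same way in the authors' deposited table. For KO these numbers were 167 and 109, and for KO-S 87 and 86. All these comparisons share the WT libraries, so the overlaps are not separate observations. Of the 292 called higher genes with recovered reads, 289 (99%) had both KO-S3D libraries above all 3 WT libraries, where 23.1% of all genes did. Of the 163 called lower, 158 (96.9%) had both below, where 24.8% of all genes did. The sign was the same in both pairs for 448 of 455 called genes, and the size was at least 1 log2 unit in both for 370. The genes were called from these same libraries, so the high shares were nearly fixed in advance. The 7 with opposite signs were Dkkl1, Foxq1, Gjb2, Lamb1, Lef1, Pth1r and Timp2. The called higher genes had a median log2 ratio of 2.43 in pair A and 1.83 in pair B, and the called lower genes of -2.09 and -1.56. The pairs differed by over 2 log2 units for 59 of the higher and 26 of the lower genes. With limma on the recovered reads, fitted without a block, 553 genes were called higher and 440 lower, and 367 of the 455 were called again. In the same fit no gene was called without the WT library of pair A, without the WT library with no partner or without the KO-S3D library of pair A, where 3134, 2565 and 3763 genes had an unadjusted p under 0.05.

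**Figure D1:**
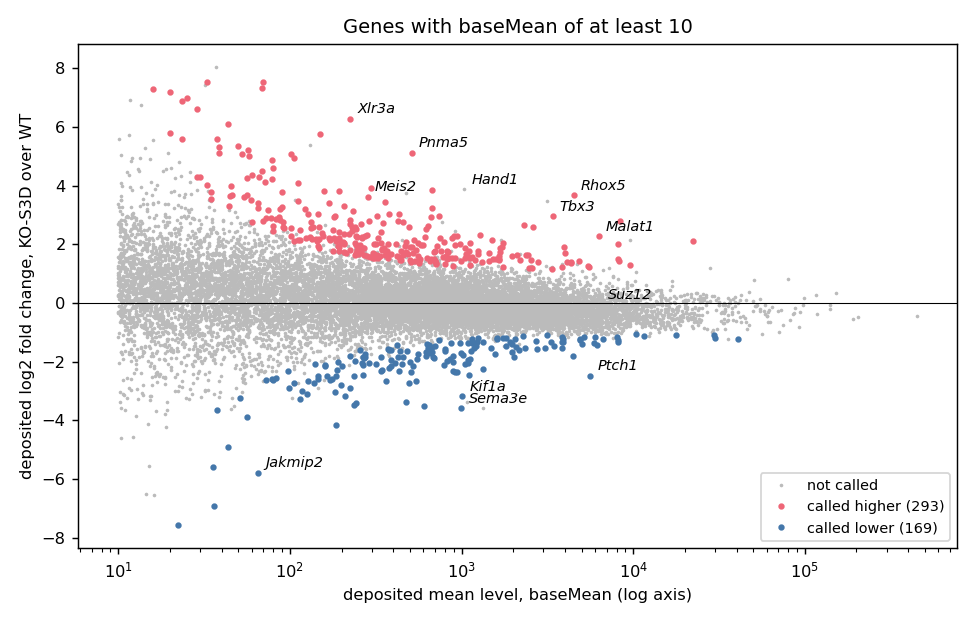
Deposited log2 fold change of KO-S3D over WT (vertical axis) against deposited mean level, baseMean (horizontal log axis), 1 point a gene. The 293 genes called higher (red) and 169 called lower (blue) stand apart from the genes not called (grey), and Suz12 lies at -0.06.

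The genes with the largest rises were led by a stretch of the X chromosome, chr X from 73033981 to 73265576 (GRCm38.p6), which was singled out after the values were seen. It holds 11 genes with a baseMean of at least 10 over 232 kb, and 8 of them were called higher: Pnma5, Pnma3, Xlr4a, Xlr3a, Xlr5a, Xlr5b, Xlr3b and Xlr3c. Pnma5 and Pnma3 encode proteins related to retrotransposon Gag, and the Xlr genes are a lymphocyte-regulated family with members active in germ cells. Pnma5 had 11, 89 and 24 normalised reads in WT and 1370 and 1059 in KO-S3D, a rise of 5.13 ± 0.58 (adjusted p 5.21e-15) in the authors' deposited table. Pnma3 had 3.8, 12 and 7.3 in WT and 302 and 181 in KO-S3D, a rise of 5.09 ± 0.79 (adjusted p 7.74e-08) in the authors' deposited table. For both genes the KO-S3D libraries were far above every WT library and less than 2-fold apart. Xlr3a had 2.8, 8.4 and 2.7 in WT and 999 and 111 in KO-S3D, a rise of 6.29 ± 0.75 (adjusted p 2.61e-13) in the authors' deposited table. Xlr3b rose by 5.75 ± 0.81 (adjusted p 1.55e-09) and Xlr3c by 4.94 ± 0.80 (adjusted p 4.56e-07) in the authors' deposited table. The Xlr genes were higher in the pair A than in the pair B KO-S3D library. Xlr5a had 0, 1.1 and 0 normalised reads in WT and 335 and 12 in KO-S3D. Xlr5b had 0, 1.1 and 0 in WT and 333 and 7.9 in KO-S3D. Xlr4a had 0.94, 1.1 and 0 in WT and 202 and 15 in KO-S3D. No fold is given for these 3 genes, whose WT values rest on single reads. In limma without a block the calls of Xlr5a and Xlr5b were lost (adjusted p 0.052 and 0.0662). Xlr3 and Xlr5 members are near-identical copies, so how reads were split among them is uncertain. Xlr4b, F8a and Xlr4c were not called. Xlr4b and Xlr4c had large but imprecise fitted rises of 8.05 (adjusted p 0.463) and 7.43 (adjusted p 0.511) in the authors' deposited table. F8a, within the stretch, had a log2 fold change of 0.38 (adjusted p 0.888) there. In KO the authors' deposited table gave log2 fold changes of 3.47 for Pnma5 and 5.48 for Xlr3a, in KO-L3D 4.88 and 3.47, and in KO-S -0.73 and -0.49, all against the same WT libraries.

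Rhox5, an X-linked homeobox gene of the reproductive Rhox cluster that is repressed by DNA methylation in ESC, had 1007, 542 and 985 normalised reads in WT and 12934 and 6995 in KO-S3D. It rose by 3.68 ± 0.44 (adjusted p 2.5e-13) in the authors' deposited table, by 3.68 in pair A and 3.69 in pair B. Of the 6 Rhox genes measured it was the 1 called, and the list's median log2 ratio was 4.40 in pair A and -0.08 in pair B. Another 5 rises were of Zscan4 genes, SCAN-domain zinc finger genes of the 2-cell embryo that are active in a small share of ESC at a time. Zscan4c had 18, 0 and 19 normalised reads in WT and 291 and 65 in KO-S3D, a rise of 4.88 ± 1.19 (adjusted p 0.00347) in the authors' deposited table. Zscan4a, Zscan4b, Zscan4d and Zscan4f also passed, with rises between 4.11 and 5.34 in the authors' deposited table, and the copies are near-identical. The WT library of pair B had 0 reads of Zscan4a, Zscan4b, Zscan4c and Zscan4d, so the size of these fitted rises is no bound. In limma without a block Zscan4a, Zscan4c and Zscan4d lost their calls (adjusted p 0.0851, 0.101 and 0.059), and 2 of the 7 listed genes were called. Without the WT library of pair B the limma estimate for Zscan4c was 2.84, against 4.27 with it. The list of 2-cell genes had 7 measured members with a median ratio of 4.40 in pair A and 5.38 in pair B. Both KO-S3D libraries were above all WT libraries in 6 of them, where 23.1% of all genes were. Of the 7, 5 are the near-identical Zscan4 copies, so the members are not separate measurements and the list's values rest mainly on these copies. Usp17lc and Eif1a, the other members measured, were not called. The list's limma median was 4.23, and 3.09 without the KO-S3D library of pair A.

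**Figure D2:**
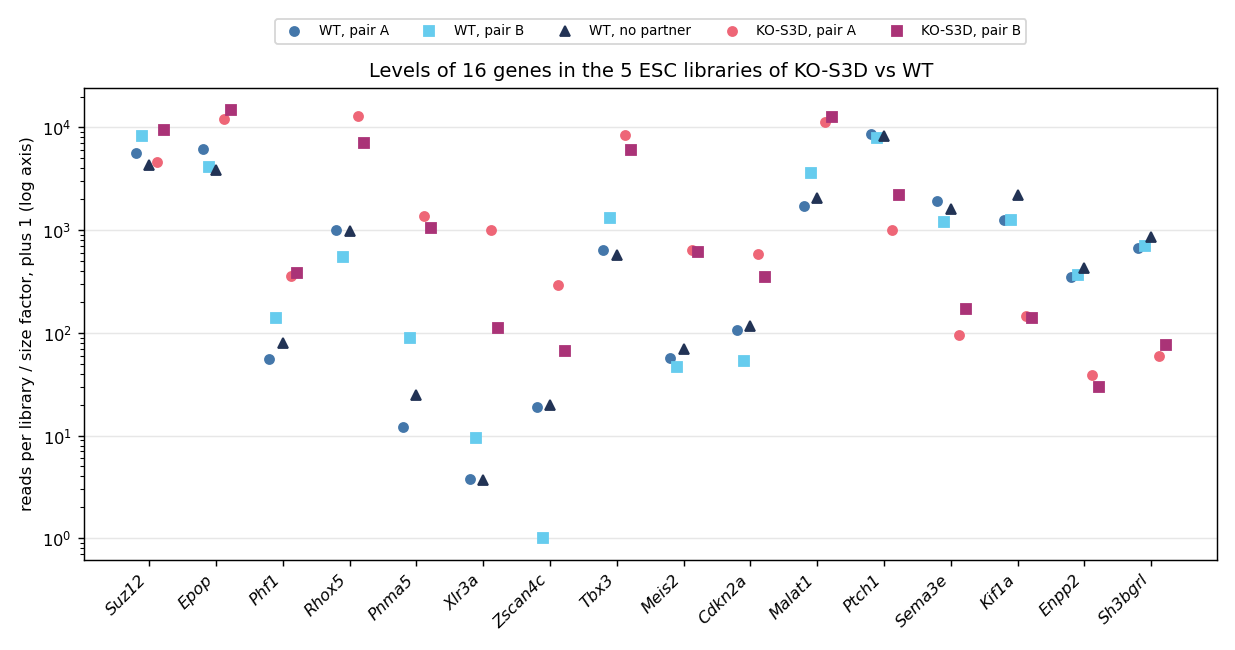
Normalised reads plus 1 (log axis) of 16 genes in each of the 5 libraries; blue points are the 3 WT libraries and red or purple points the 2 KO-S3D libraries, with circles for pair A, squares for pair B and triangles for the WT library without a partner. Suz12 overlaps between the groups, while the KO-S3D points lie above all WT points from Epop to Malat1 and below them from Ptch1 to Sh3bgrl.

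Tbx3, a T-box factor of naive pluripotent cells, had 642, 1308 and 576 normalised reads in WT and 8389 and 6038 in KO-S3D. It rose by 2.96 ± 0.36 (adjusted p 5.87e-13) in the authors' deposited table. Against the same WT, the authors' deposited tables had 2.84 for KO-S, 3.10 for KO and 3.78 for KO-L3D. Klf4, a core reprogramming factor, had 3238, 4304 and 2529 in WT and 7878 and 9859 in KO-S3D, a rise of 1.24 ± 0.36 (adjusted p 0.0261) in the authors' deposited table. These were the 2 called among 14 naive pluripotency genes. Of 16 core and formative pluripotency genes, Foxd3 rose and Lin28b fell. Foxd3, a forkhead factor of ESC and neural crest, had 368, 377 and 209 in WT and 1620 and 1820 in KO-S3D, a rise of 2.21 ± 0.39 (adjusted p 6.22e-06) in the authors' deposited table. Lin28b, which blocks let-7 maturation, had 1826, 1244 and 1424 in WT and 251 and 521 in KO-S3D, a fall of -2.06 ± 0.39 (adjusted p 3.74e-05) in the authors' deposited table. Groups did not overlap for any of these 4 genes.

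Other strong rises were of Arl14epl, the noncoding gene D7Ertd143e, the collagen gene Col20a1 and C430049B03Rik. Arl14epl had 171, 61 and 170 normalised reads in WT and 1600 and 1380 in KO-S3D, a rise of 3.84 ± 0.49 (adjusted p 5.6e-12) in the authors' deposited table. D7Ertd143e had 152, 144 and 259 in WT and 1292 and 1501 in KO-S3D, a rise of 3.23 ± 0.41 (adjusted p 5.6e-12) in the authors' deposited table. Col20a1 had 3.8, 14 and 8.2 in WT and 216 and 157 in KO-S3D, a rise of 4.60 ± 0.85 (adjusted p 1.78e-05) in the authors' deposited table. In these 3 genes the KO-S3D libraries were close to each other. C430049B03Rik, an X-linked noncoding gene, was less even, with 267 and 9 in KO-S3D against 1.9, 1.1 and 4.5 in WT, and had a rise of 5.22 ± 1.34 (adjusted p 0.00677) in the authors' deposited table. That call was lost in limma without a block (adjusted p 0.103).

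Among the largest falls, Sema3e, a secreted semaphorin that guides axons and vessels, had 1914, 1199 and 1605 normalised reads in WT and 94 and 169 in KO-S3D. It fell by 3.59 ± 0.39 on the log2 scale (adjusted p 8.39e-16) in the authors' deposited table. Kif1a, a kinesin that carries synaptic vesicle precursors, had 1267, 1267 and 2214 in WT and 145 and 137 in KO-S3D, with a log2 fold change of -3.17 ± 0.39 (adjusted p 1.04e-12) in the authors' deposited table. Ptch1, the Hedgehog receptor and itself a Hedgehog target, had 8704, 7978 and 8168 in WT and 1002 and 2219 in KO-S3D, at -2.48 ± 0.38 (adjusted p 5.38e-08) in the authors' deposited table. All 3 were lower in both pairs, with no overlap. Enpp2, which encodes the lysophosphatidic acid producing enzyme autotaxin, had 351, 367 and 430 in WT and 38 and 29 in KO-S3D. Its log2 fold change was -3.42 ± 0.54 (adjusted p 1.21e-07) in the authors' deposited table. Kcnj3, a G-protein-gated potassium channel, had 419, 144 and 331 in WT and 19 and 9 in KO-S3D, at -4.16 ± 0.70 (adjusted p 1.76e-06) in the authors' deposited table. Jakmip2 had 159, 45 and 120 in WT and 1.9 and 1.1 in KO-S3D, at -5.78 ± 1.19 (adjusted p 0.000205) in the authors' deposited table. In both genes the WT library of pair B was the lowest of the 3 and still above both KO-S3D libraries, and the KO-S3D values of Jakmip2 rest on 1 to 2 reads.

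Of the 12 largest falls 4 were X-linked. Sh3bgrl, a small thioredoxin-fold protein gene, had 664, 707 and 855 normalised reads in WT and 58 and 76 in KO-S3D. It stood at -3.37 ± 0.45 (adjusted p 1.38e-10) in the authors' deposited table. In the one for KO it stood at 0.04. Rab39b, a neuronal small GTPase, had 188, 154 and 198 in WT and 18 and 17 in KO-S3D, at -3.28 ± 0.69 (adjusted p 0.000325) in the authors' deposited table. Fndc3c1 had 1244, 380 and 1283 in WT and 59 and 62 in KO-S3D, at -3.50 ± 0.50 (adjusted p 1.55e-09) in the authors' deposited table. Hs6st2, a heparan sulfate 6-O-sulfotransferase, had 505, 272 and 315 in WT and 12 and 79 in KO-S3D, at -3.49 ± 0.60 (adjusted p 2.54e-06) in the authors' deposited table. The KO-S3D libraries were even for Rab39b and Fndc3c1 and uneven for Hs6st2. Col1a2, Cyp1b1 and Ugt8a also fell, at -3.87 (adjusted p 0.00626), -3.24 (adjusted p 0.0357) and -3.18 (adjusted p 1.07e-05) by the authors' deposited table.

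The lists of neuronal genes were counted next, where 1.96% of all genes were called higher and 1.13% lower. Of 28 measured genes of the neuronal cytoskeleton and vesicles, Kif1a, Kif5c, Ina, Map1b and Crmp1 fell and Mapt rose. The median log2 fold change was -0.95 in the authors' deposited table, against -0.03 over all genes, and the median ratio was -0.86 in pair A and -0.86 in pair B. In the authors' deposited tables for KO-L3D, KO-S and KO the list's median was -0.94, -0.59 and -0.11. Against the mean of the WT libraries the median was -0.58 in the pair A and -0.90 in the pair B KO-S3D library, and the limma median was -0.53 without the KO-S3D library of pair B. Of the 28, 15 had both KO-S3D libraries below all WT libraries and 2 above, where 24.8% and 23.1% of all genes did. Crmp1, a collapsin response mediator, had 2203, 1790 and 1831 in WT and 317 and 550 in KO-S3D, at -2.25 ± 0.38 (adjusted p 1.64e-06) in the authors' deposited table. Map1b, a microtubule-associated protein, had 5002, 5711 and 4180 in WT and 1752 and 2607 in KO-S3D, at -1.32 ± 0.37 (adjusted p 0.0163) in the authors' deposited table. Ina, the neurofilament alpha-internexin, had 3167, 2481 and 2166 in WT and 484 and 1573 in KO-S3D, at -1.68 ± 0.42 (adjusted p 0.00445) in the authors' deposited table. Groups did not overlap in these 3 genes. Mapt, which encodes tau, went the other way, with 239, 593 and 481 in WT and 1234 and 929 in KO-S3D, at 1.51 ± 0.43 (adjusted p 0.0226) in the authors' deposited table. The call of Mapt was lost in limma without a block, which called 0 of the 28 genes higher and 5 lower. The summed neural markers include Tubb3, a member of this list, so they are not a separate observation. They were lowest in the pair B KO-S3D library (811), while pair A (2070) lay within the WT range. Their part in the list's values was not tested. Of 46 axon guidance genes, Sema3e, Sema6a, Nrp2 and Ntn1 fell and Sema6c rose, with a median of 0.03. Nrp2, a semaphorin co-receptor, had 1297, 1695 and 1760 in WT and 564 and 280 in KO-S3D, at -1.90 ± 0.39 (adjusted p 0.000242) in the authors' deposited table.

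**Figure D3:**
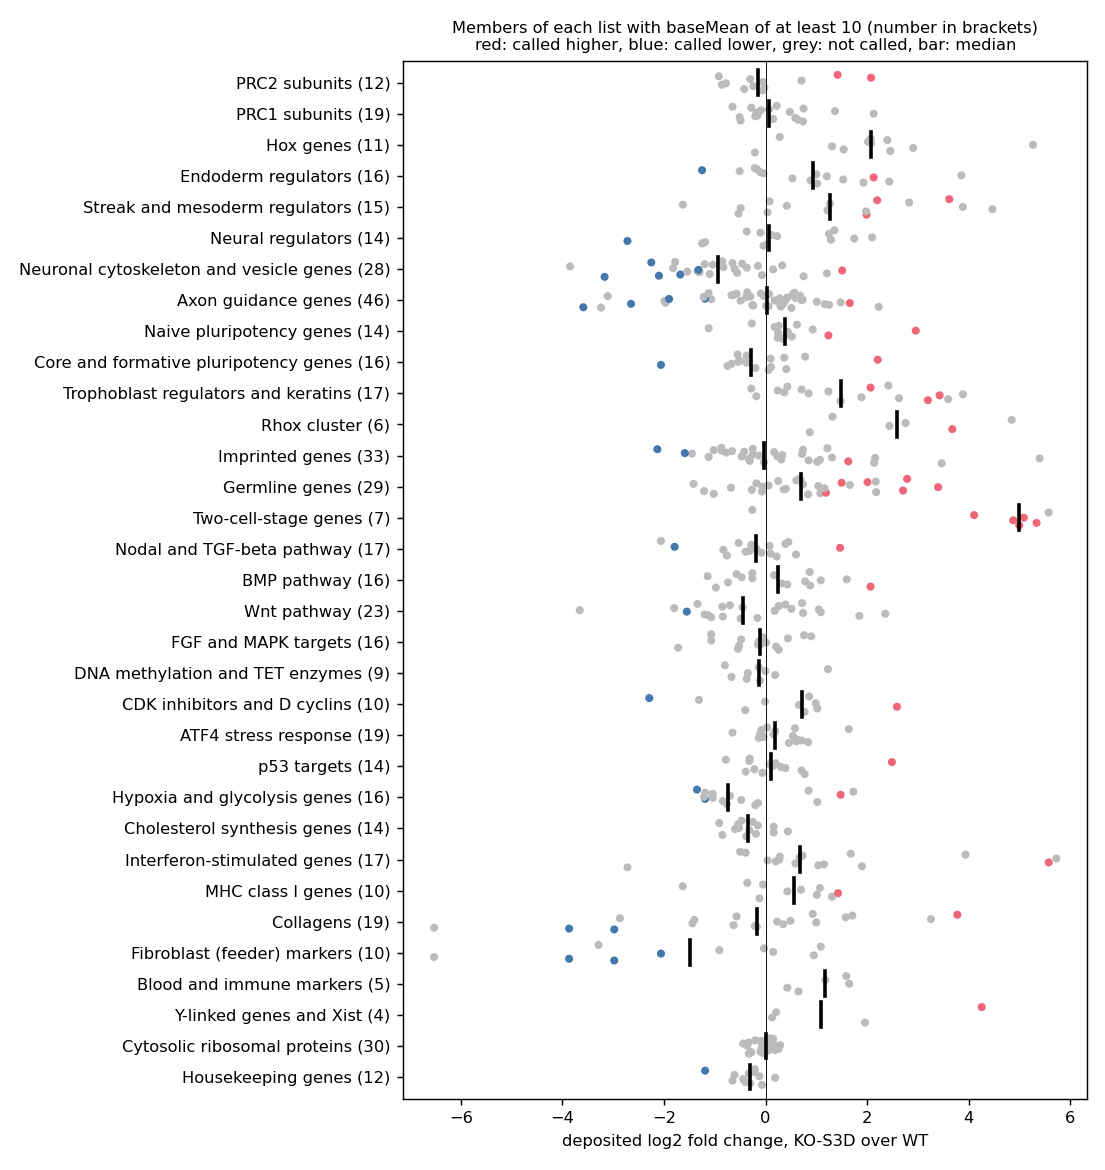
Deposited log2 fold change (horizontal axis) of each measured member of 33 gene lists, 1 point a gene, with called higher genes in red, called lower genes in blue and the list's median as a bar. Neuronal cytoskeleton genes lie mostly below 0 (median -0.95), Zscan4 genes near 5, and the Hox and trophoblast lists have high medians (2.07 and 1.48) with 0 and 3 called members.

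Germline genes encode proteins of meiosis and of oocytes or spermatocytes. Of 29 measured, 6 rose and none fell, where 1.96% of all genes rose and 1.13% fell, and the median was 0.69. The list's median ratio was 1.52 in pair A and 0.02 in pair B. In the limma fit without a block it was 0.65, and 1.10 without the KO-S3D library of pair B. Stra8, needed for entry into meiosis, had 61, 112 and 43 normalised reads in WT and 545 and 542 in KO-S3D, a rise of 2.71 ± 0.53 (adjusted p 7.21e-05) in the authors' deposited table. Fkbp6 had 17, 50 and 33 in WT and 598 and 155 in KO-S3D, a rise of 3.40 ± 0.60 (adjusted p 4.97e-06) in the authors' deposited table. Rpl10l, a testis copy of Rpl10, had 345, 320 and 334 in WT and 955 and 927 in KO-S3D, a rise of 1.50 ± 0.41 (adjusted p 0.015) in the authors' deposited table. Tuba3a, Khdc3 and Tex19.1 rose by 2.01, 2.79 and 1.19 in the authors' deposited table. These 6 genes were higher in both pairs, while the summed germ cell markers Ddx4, Dazl and Sycp3 were lower in KO-S3D than in WT.

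Genes were then sorted by the study's own regions, which come from ChIP-seq in the same line and did not enter the choice of genes. The deposited lists hold 2865 Suz12 and 6882 H3K27me3 regions. The file headers do not say which group WT was set against or in which direction a region changed. Of 11741 genes with a listed start, 1051 had a start inside a Suz12 region, 810 inside an H3K27me3 region only, and 9880 inside neither. At Suz12 regions 30 genes rose and 24 fell (5.14% called), at H3K27me3 regions only 23 rose and 11 fell (4.2%), and at neither 165 rose and 99 fell (2.67%). Over these classes the authors' deposited table had median log2 fold changes of 0.06, 0.11 and -0.04. Behind the median of 0.06 the pairs went opposite ways: the median ratio at Suz12 regions was 0.56 in pair A and -0.45 in pair B. At H3K27me3 regions only it was 0.48 and -0.27, and at neither -0.07 and 0.00.

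Against the mean of the 3 WT libraries, Suz12-region genes had a median log2 ratio of 0.45 in the pair A and -0.49 in the pair B KO-S3D library. The WT libraries themselves lay between -0.04 and 0.02. The 3 KO libraries lay at 0.69, 0.47 and 0.50, the KO-L3D libraries at 0.66 and 0.05, and the KO-S libraries at -0.13 and -0.09. Thus 1 KO-S3D library was above WT by nearly as much as KO and the other was the lowest of these 12 libraries. Of the 1048 Suz12-region genes with reads, 218 (20.8%) were over 4-fold higher in the pair A than in the pair B KO-S3D library, against 92 of 810 (11.4%) at H3K27me3 regions only and 228 of 9527 (2.39%) at neither. Of the 218, 7 were called in the authors' deposited table. The summed trophoblast markers, largely Krt7, and Hand1 moved with it, as given above, and their part was not tested.

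**Figure D4:**
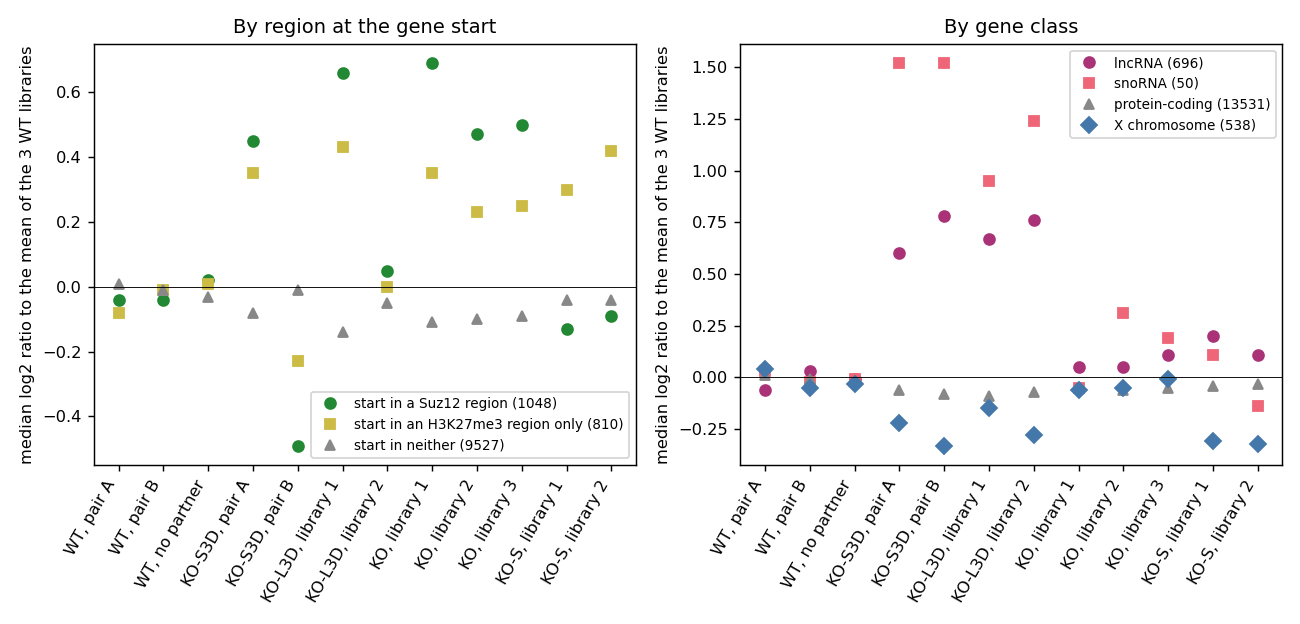
Median log2 ratio to the mean of the 3 WT libraries for gene sets (points) in 12 ESC libraries (horizontal axis); the KO-S3D libraries are labelled on the axis. Left, genes at Suz12 regions lie at 0.45 and -0.49 in the KO-S3D libraries; right, the medians of lncRNA and snoRNA genes lie above 0 in both KO-S3D and both KO-L3D libraries.

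Single genes chosen after their values were seen, and the developmental lists, illustrate the split. Hand1, a mesoderm and trophoblast factor, had 65, 22 and 48 normalised reads in WT and 4976 and 64 in KO-S3D, with a log2 fold change of 3.89 ± 2.20 (adjusted p 0.428) in the authors' deposited table. Gata3, a trophoblast and T-cell factor, had 35, 16 and 74 in WT and 491 and 44 in KO-S3D, at 2.63 ± 0.88 (adjusted p 0.0734) in the authors' deposited table. The keratin gene Krt7 had 242, 154 and 259 in WT and 4910 and 42 in KO-S3D. The growth factor gene Igf2 had 1547, 612 and 1621 in WT and 43824 and 418 in KO-S3D, and H19, its imprinted noncoding neighbour, 43, 367 and 46 against 15236 and 123. In all 5 genes the pair A library was above every WT library and the pair B library within or below the WT range. Foxp1, a forkhead repressor, was the reverse: it had 3140, 2601 and 2286 in WT, 517 and 2273 in KO-S3D, 397, 346 and 454 in KO and 411 and 470 in KO-L3D. Only its pair A library was at the KO level. None of 11 measured Hox genes was called by the authors' test, with 3 at an unadjusted p under 0.05 and none called by limma without a block, and their median ratio was 3.48 in pair A and -0.68 in pair B. The remaining 28 of 39 Hox genes had a baseMean under 10. Of 17 trophoblast genes and keratins, Cdx1, Esx1 and Bmp4 rose, and the list's median ratio was 3.26 in pair A and 0.09 in pair B. Of 16 endoderm genes, Foxq1 rose and Lamb1 fell, and both had opposite signs in the 2 pairs. The WT library of pair B was high in endoderm genes such as Gata4 (59, 963 and 53 in WT, 819 and 296 in KO-S3D), and the list's median ratio was 3.57 in pair A and -1.91 in pair B.

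A smaller group of Suz12-region genes rose in both pairs. Meis2, a homeobox cofactor of Hox proteins, had 56, 46 and 69 normalised reads in WT and 645 and 606 in KO-S3D, a rise of 3.62 ± 0.50 (adjusted p 7.4e-10) in the authors' deposited table. Its relative Meis1 had 49, 71 and 75 in WT and 243 and 303 in KO-S3D, a rise of 2.20 ± 0.61 (adjusted p 0.0161) in the authors' deposited table. Eomes, a T-box factor of the primitive streak and trophoblast, had 129, 90 and 108 in WT and 695 and 265 in KO-S3D, a rise of 1.99 ± 0.58 (adjusted p 0.026) in the authors' deposited table. These were the 3 called of 15 streak and mesoderm genes. Cdkn2a, which encodes the cell-cycle inhibitors p16Ink4a and p19Arf and is a classical Polycomb target, had 106, 52 and 115 in WT and 580 and 346 in KO-S3D, a rise of 2.59 ± 0.58 (adjusted p 0.00117) in the authors' deposited table. Bmp4, a secreted signal of mesoderm and trophoblast induction, had 357, 347 and 236 in WT and 1276 and 1714 in KO-S3D, a rise of 2.07 ± 0.40 (adjusted p 5.7e-05) in the authors' deposited table. In KO the deposited values were 3.21 for Meis2, 2.88 for Cdkn2a and 0.87 for Bmp4, and in KO-S -0.55, 2.15 and 0.67, all in the authors' deposited tables and against the same WT. Ccnd2, a D cyclin not among the genes with a listed start, fell unevenly, from 261, 334 and 162 in WT to 163 and 20. It stood at -2.29 ± 0.68 (adjusted p 0.0289) in the authors' deposited table, whereas in KO the authors' deposited table had it at 2.58. The call of Ccnd2 was lost in limma without a block.

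**Figure D5:**
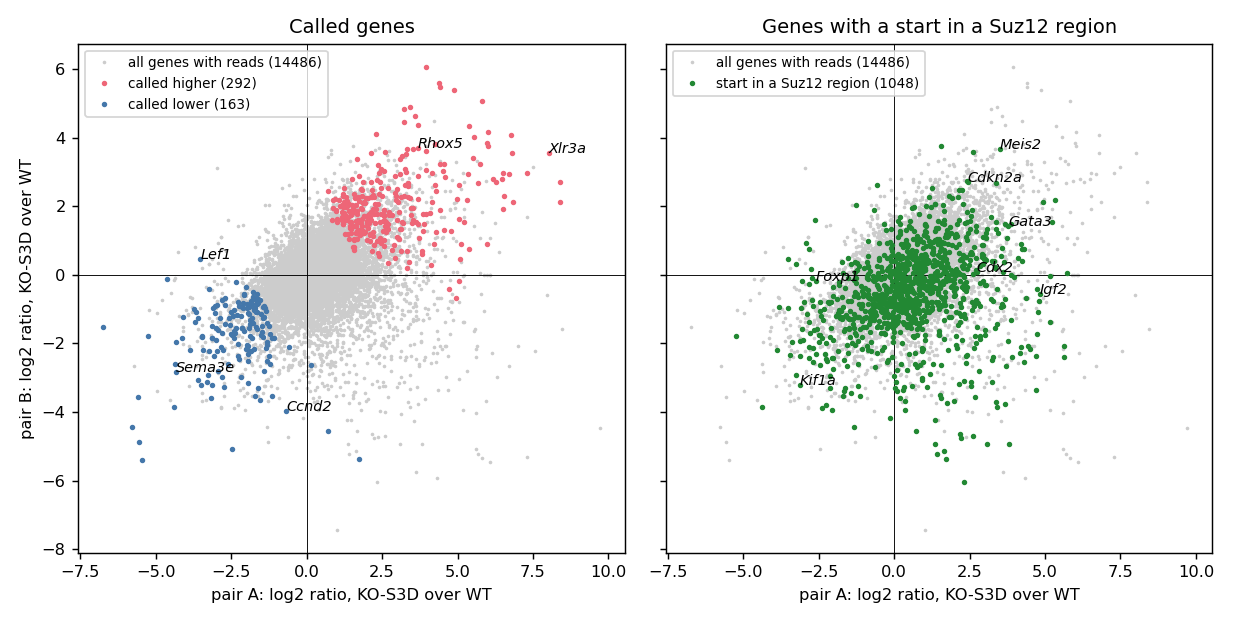
Log2 ratio of KO-S3D over WT in pair A (horizontal axis) and pair B (vertical axis) for 14486 genes (grey). Left, called higher (292, red) and called lower (163, blue) genes lie mostly where both pairs have the same sign; right, the 1048 genes at Suz12 regions (green) spread towards high pair A and low pair B ratios.

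Because CpG-rich promoters are the usual sites of Polycomb binding, the promoters of 6 genes are shown: 2 that rose in both pairs at Suz12 regions, 1 above the WT range in the pair A library only, 1 near the KO level in the pair A library only, 1 that fell in both, and 1 that rose with no region. They run from 250 bases before to 50 after a start (RefSeq, GRCm38.p6), 5′ to 3′ on the gene's strand, with each CG in capitals. Of several listed starts (3 for Foxp1, 2 each for Cdkn2a and Kif1a) the one inside a Suz12 region with most CG is shown. The positions are chr4:89294570-89294869 (- strand, Cdkn2a), chr2:116064570-116064869 (-, Meis2), chr2:9878551-9878850 (-, Gata3), chr6:99520944-99521243 (-, Foxp1), chr1:93101825-93102124 (-, Kif1a) and chrX:37754358-37754657 (+, Rhox5).
Cdkn2a: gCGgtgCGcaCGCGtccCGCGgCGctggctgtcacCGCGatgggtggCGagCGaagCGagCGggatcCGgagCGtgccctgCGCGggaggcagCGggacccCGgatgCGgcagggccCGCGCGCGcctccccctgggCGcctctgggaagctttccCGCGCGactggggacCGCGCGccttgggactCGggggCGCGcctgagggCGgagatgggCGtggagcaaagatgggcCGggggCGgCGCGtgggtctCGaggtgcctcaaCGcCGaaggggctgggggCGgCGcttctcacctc
Meis2: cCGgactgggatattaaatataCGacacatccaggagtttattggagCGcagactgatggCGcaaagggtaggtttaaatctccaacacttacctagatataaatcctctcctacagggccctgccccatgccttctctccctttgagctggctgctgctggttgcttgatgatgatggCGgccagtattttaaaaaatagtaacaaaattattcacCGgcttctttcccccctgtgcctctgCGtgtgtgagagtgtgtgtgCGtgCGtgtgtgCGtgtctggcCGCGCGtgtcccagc
Gata3: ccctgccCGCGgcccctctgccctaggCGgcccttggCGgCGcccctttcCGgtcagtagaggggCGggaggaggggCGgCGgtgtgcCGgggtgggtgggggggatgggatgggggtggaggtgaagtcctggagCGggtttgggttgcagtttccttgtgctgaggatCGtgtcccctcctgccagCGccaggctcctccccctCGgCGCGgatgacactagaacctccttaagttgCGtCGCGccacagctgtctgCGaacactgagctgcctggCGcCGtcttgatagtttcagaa
Foxp1: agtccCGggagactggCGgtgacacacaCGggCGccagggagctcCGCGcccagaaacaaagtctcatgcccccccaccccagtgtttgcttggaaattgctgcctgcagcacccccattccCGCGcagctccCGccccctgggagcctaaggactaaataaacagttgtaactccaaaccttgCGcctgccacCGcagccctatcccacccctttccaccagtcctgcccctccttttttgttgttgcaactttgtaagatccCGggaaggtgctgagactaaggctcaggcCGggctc
Kif1a: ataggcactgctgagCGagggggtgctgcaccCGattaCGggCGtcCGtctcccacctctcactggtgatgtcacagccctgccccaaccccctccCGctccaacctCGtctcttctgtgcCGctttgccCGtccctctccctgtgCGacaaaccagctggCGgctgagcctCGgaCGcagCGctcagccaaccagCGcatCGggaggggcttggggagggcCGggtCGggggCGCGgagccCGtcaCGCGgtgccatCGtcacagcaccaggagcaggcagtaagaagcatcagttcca
Rhox5: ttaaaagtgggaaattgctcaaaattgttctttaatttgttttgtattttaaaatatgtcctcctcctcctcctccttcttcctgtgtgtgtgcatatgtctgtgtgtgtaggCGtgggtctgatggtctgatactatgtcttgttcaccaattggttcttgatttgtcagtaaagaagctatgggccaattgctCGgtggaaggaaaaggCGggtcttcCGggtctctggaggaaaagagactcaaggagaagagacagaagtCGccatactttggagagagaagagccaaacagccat
The letters CG, which read the same on both strands, occurred 45 times at Cdkn2a, 13 at Meis2, 22 at Gata3, 13 at Foxp1, 24 at Kif1a and 5 at Rhox5. At least 45 were found in 1.93% of 32851 promoters of this length, at least 24 in 20%, at least 22 in 23.1%, at least 13 in 37.9% and at least 5 in 62%. With the highest number over a gene's starts (44 for Foxp1), the median was 27 at Suz12-region genes, 23 at genes of H3K27me3 regions only and 20 at the others. Called higher genes had a median of 13 (218 genes with a promoter entry) and called lower genes of 19 (134), against 21 over all 11741.

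Noncoding RNA genes had higher medians than protein-coding genes in both pairs, although few were called. Of 696 lncRNA genes, 40 were called higher and 1 lower (5.89% called, against 3.1% of all genes), and their median log2 fold change was 0.81 in the authors' deposited table, with 0.81 in pair A and 0.73 in pair B. The 13963 protein-coding genes had a median of -0.06. For lncRNA genes the medians in the authors' deposited tables were 0.82 in KO-L3D, 0.19 in KO-S and 0.13 in KO. The 50 measured snoRNA genes had a median of 1.63, against 1.21, 0.05 and 0.12 in these groups, and 2 of them, Snora61 and Snora65, were called higher (4%, near the share of all genes). The 186 transcribed pseudogenes had a median of 0.09, with 8 called higher. Whether library preparation differed between the groups is not stated, and its part was not tested. Malat1, an abundant nuclear RNA of speckles, had 1708, 3610 and 2070 normalised reads in WT and 11274 and 12741 in KO-S3D, a rise of 2.27 ± 0.40 (adjusted p 4.3e-06) in the authors' deposited table. Neat1, the scaffold of paraspeckles, had 473, 712 and 916 in WT and 2220 and 1301 in KO-S3D, a rise of 1.55 ± 0.38 (adjusted p 0.00355) in the authors' deposited table. Firre, an X-linked nuclear RNA, had 662, 1007 and 1173 in WT and 4256 and 5865 in KO-S3D, a rise of 2.61 ± 0.39 (adjusted p 2.54e-08) in the authors' deposited table. Kcnq1ot1, an imprinted antisense RNA, had 1181, 1339 and 1199 in WT and 2780 and 5412 in KO-S3D, a rise of 1.63 ± 0.40 (adjusted p 0.00384) in the authors' deposited table. In the authors' deposited tables Malat1 stood at 2.12 in KO-L3D, 0.14 in KO-S and -0.76 in KO. Malat1, Neat1, Firre and the snoRNA genes were chosen after their values were seen.

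Gene length showed a graded pattern. Protein-coding genes were split into 4 classes of equal size by span. The median of the shortest (up to 10.2 kb) was 0.12 on the log2 scale in the authors' deposited table, that of the next classes -0.03 and -0.14, and that of the longest (from 56.4 kb) -0.20. The longest class had 43 called higher and 83 called lower genes, and the shortest 78 and 20. Called higher protein-coding genes had a median span of 15.8 kb, called lower ones of 54.1 kb and all of 23.7 kb. KO-L3D had medians of 0.10, -0.06, -0.17 and -0.19, KO-S of 0.02, -0.04, -0.06 and -0.03, and KO of -0.01, -0.09, -0.09 and 0.00 in the authors' deposited tables. The called genes of each direction thus differed in length, and the part of RNA quality was not tested.

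The X chromosome had a larger share of called genes than any autosome. Of 557 X-linked genes 22 rose and 32 fell (9.69% called), against 271 rises and 137 falls among 14359 autosomal genes (2.84%). The X median was -0.26 in the authors' deposited table, -0.26 in pair A and -0.20 in pair B, against -0.02 for autosomes. In KO-S the X median was -0.31, in KO-L3D -0.22 and in KO -0.03 in the authors' deposited tables. Xist, the RNA that coats the inactive X, had 10, 4.2 and 2.7 normalised reads in WT and 136 and 128 in KO-S3D, a rise of 4.26 ± 0.96 (adjusted p 0.00106) in the authors' deposited table. Its antisense partner Tsix had 29, 13 and 28 in WT and 149 and 233 in KO-S3D, a rise of 3.26 ± 0.74 (adjusted p 0.00125) in the authors' deposited table. Whether counting used strand is not stated, so the reads of the 2 overlapping genes cannot be told apart. The Y-linked gene Ddx3y had 17, 729 and 482 in WT and 511 and 418 in KO-S3D, so the WT library of pair A was the low one.

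Other pathways were counted in the same way. Of 17 Nodal and TGF-beta genes Smad7, an inhibitory Smad, rose (1333, 1630 and 1579 normalised reads in WT, 4219 and 3953 in KO-S3D) and Skil, a repressor of Smad signalling, fell (7942, 4632 and 6224 against 1415 and 2182). Their log2 fold changes were 1.47 ± 0.35 (adjusted p 0.00299) and -1.79 ± 0.34 (adjusted p 5.41e-05) in the authors' deposited table. Of 23 Wnt genes Lef1 alone was called, and it fell in pair A and not in pair B. Of 19 collagens Col26a1 rose and Col1a1 and Col1a2 fell, 7 had an unadjusted p under 0.05, and Acta2 fell with the latter on the fibroblast list. Col1a1 had 281, 84 and 171 in WT and 41 and 7.9 in KO-S3D. Of 33 imprinted genes Kcnq1ot1 rose and Mest and Nnat fell. Irf7, an interferon regulator, rose among 17 interferon-stimulated genes, and H2-T23 among 10 MHC class I genes. Gdf15 rose among 14 p53 targets, and Vegfa rose and Pgk1 and P4ha1 fell among 16 hypoxia and glycolysis genes, of which 10 had an unadjusted p under 0.05. Neurod1 fell among 14 neural regulators. The calls of Irf7, Gdf15, P4ha1 and Neurod1 were lost in limma without a block. Bmp4 was the 1 called of 16 BMP genes, Pgk1 the 1 called of 12 housekeeping genes, Xist the 1 called of 4 Y-linked genes and Xist, and none of 5 blood genes was called or had an unadjusted p under 0.05. The authors' test called none of 16 FGF and MAPK targets, 9 DNA methylation and TET enzymes, 19 ATF4 targets, 14 cholesterol synthesis genes or 30 cytosolic ribosomal protein genes. Unadjusted p-values under 0.05 were found for 4, 2, 1, 1 and 0 of these, and limma without a block called none of those with reads. The ribosomal list, for which no reads were recovered, had a median of 0.01 in the authors' deposited table.

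The 3D rescue was then set against the other groups by testing the difference of the deposited log2 fold changes, with errors added as if independent. All tables share the WT libraries, so this overstates the error of the difference. Against KO-S, the same isoform without the mutation, 106 of 14483 genes differed (0.732%), 73 higher and 33 lower in KO-S3D. Wnk3, an X-linked kinase gene, had 922 and 675 normalised reads in KO-S3D, 1 and 2.1 in KO-S, and between 759 and 1359 in WT, a fitted difference of 9.06 ± 1.00 (adjusted p 1.78e-15) that rests on 1 to 2 reads in each KO-S library and is no bound. Ddx3y and Uba1y, both Y-linked, differed by 6.38 ± 1.00 (adjusted p 7.62e-07) and 6.33 ± 1.29 (adjusted p 0.00062), with 27 and 2.1 normalised reads of Ddx3y in KO-S. Meis2 differed by 4.17 ± 0.91 (adjusted p 0.00185) and Pnma5 by 5.86 ± 1.15 (adjusted p 0.000341), being near WT in KO-S. The imprinted factor gene Plagl1 differed by 4.56 ± 1.03 (adjusted p 0.00337) and H19 by 5.64 ± 1.56 (adjusted p 0.0442), both high in 1 KO-S3D library only. Lower in KO-S3D were Lrrk2, Foxn4, Atcay, Tgfbi and Tppp3, by -4.00, -3.97, -3.55, -3.49 and -3.33. For Foxn4 the normalised reads were 39 and 47 in KO-S3D, between 142 and 218 in WT, and 624 and 731 in KO-S.

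Against KO, 22 of 14642 genes differed (0.15%), 10 higher and 12 lower in KO-S3D. The largest positive differences were Snhg11 (3.17 ± 0.51, adjusted p 1.51e-06), Erdr1 (3.07 ± 0.45, adjusted p 4.98e-08), Malat1 (3.03 ± 0.48, adjusted p 1.03e-06), Firre (2.80 ± 0.52, adjusted p 0.000158) and Icosl (2.41 ± 0.45, adjusted p 0.000158). Snhg11, a snoRNA host gene, had 1682 and 1376 normalised reads in KO-S3D, between 162 and 229 in WT and between 153 and 214 in KO. The largest negative differences were of Ccnd2 (-4.87 ± 0.73, adjusted p 1.57e-07), AW551984 (-3.67 ± 0.88, adjusted p 0.0263), Sh3bgrl (-3.41 ± 0.49, adjusted p 4.98e-08), Kcnj3 (-3.25 ± 0.79, adjusted p 0.0291) and Ugt8a (-2.90 ± 0.64, adjusted p 0.0103). Suz12 itself differed by 1.75 ± 0.47 (adjusted p 0.075). Against KO-L3D, the same mutation in the long isoform, 8 of 14798 genes differed (0.0541%). Those higher in KO-S3D included Lef1 (4.29 ± 0.73), Nod1 (4.25 ± 0.62) and Ina (3.03 ± 0.52), with adjusted p from 1.4e-07 to 2.94e-05. Emp1 (-2.78 ± 0.64), Nefl (-2.59 ± 0.58), Trh (-2.31 ± 0.46) and Nrp2 (-2.12 ± 0.49) were lower, with adjusted p from 0.00193 to 0.0335. Nod1, a sensor of bacterial peptidoglycan, had 330 and 593 normalised reads in KO-S3D, between 519 and 580 in WT, and 28 and 19 in KO-L3D. Unadjusted p-values under 0.05 were found for 897, 803 and 249 genes in the comparisons with KO-S, KO and KO-L3D, and a p that missed the threshold does not show that the groups were alike.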

How the data were processed

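PolyA RNA of mouse ESC was sequenced in KO-S3D, WT and the other groups named above. The series holds 87 samples, 18 of them ESC RNA-seq. TopHat, Bowtie, DESeq2 and the builds mm10 and dm3 are named, without role or version, per the submitters' processing notes. The authors deposited, per comparison with WT, a mean signal (baseMean, counts divided by size factors, the scale inferred from the column names per the file headers), the log2 fold change with its standard error, a score (the fold change divided by that error), and the p-value with its adjusted p-value. Per the file headers, the deposited region lists were made with DiffBind (false discovery rate 5%), and the value given per region, whose kind is not stated, was not used here. The replicate numbers of the libraries cannot be assigned.

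Calls use the deposited adjusted p with a threshold of 0.05. Differences between comparisons were tested with z over all genes (two-sided, Benjamini-Hochberg). Reads of 18 libraries were recovered as whole numbers from the baseMean of 7 tables for all 14486 genes with a baseMean of 10 to 10000, and 438 genes above that have none. Precision is set by 2 and 3 libraries, with 15094315 to 19358103 reads each. limma 3.58.1 (R 4.3.3) was run on log2(normalised reads + 1). On data simulated for KO-S3D against WT (14486 genes), it called 100% of changes of 2 log2 units and 43% of changes of 1 without a block. With the block it called 100% and 27%, and false calls were 8 without and 10 with it. Changes were placed only in genes of higher level, and the simulated libraries had a fixed spread. They lacked the large differences between libraries of a group described above, so these shares do not give the power in the real data. Other steps used Python 3.11.15, pandas 2.3.3, numpy 2.4.6, scipy 1.17.1 and matplotlib 3.10.9. Positions and promoters are from RefSeq, GRCm38.p6, and 14921 symbols matched.

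Genes named were Suz12, the 12 largest rises and falls and the 6 smallest adjusted p-values in each direction among called genes with a baseMean of at least 50, called members of 33 lists, and the 5 largest differences each way. 1 gene that this rule names is not reported here. Genes outside this rule were chosen after their values were seen. The members and lists were chosen with earlier results of these data known. Alternatives were other thresholds, baseMean minimums and error scalings, pair ratios, limma with and without a replicate block, limma over all ESC libraries and leaving out each library. The correlation of the pair A minus pair B deviations between WT and KO-S3D was 0.0522. ChIP-seq signal and other cell types were not used here.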

Additional observations from a re-analysis of the deposited data

Results flagged for a closer look

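The fold change against WT differed between KO-S3D and KO-S for 106 genes, between KO-S3D and KO for 22 genes and between KO-S3D and KO-L3D for 8 genes, each by a test of the difference itself at an adjusted p under 0.05. All these comparisons share the WT libraries, and the genes are described in the report.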

How the results depend on the processing

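The main counts were 293 higher and 169 lower. They were 167 and 82 at an adjusted p under 0.01, 280 lower at 0.1, and 89 and 38 with the statistic divided by its robust SD. The fits on recovered reads were added after seeing the data: limma gave 553 and 440 without a block, 42 and 22 with the replicate block, and 1784 and 2046 over all ESC libraries. With the paired block, 1 residual degree of freedom was left, and 61 of the 455 called genes were called again. The name of the deposited table calls the comparison paired, but the labels tie no replicate number to a shared batch or day. Leaving out each library gave 0 to 1956 higher and 0 to 2174 lower genes over these fits.

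The difference from KO-S (106) was 610 genes at a correlation of 0.5 between the estimates, 233 with a robust SD, 62 at an adjusted p under 0.01, 2268 with limma, and 1663 to 2429 leaving out each library. The difference from KO (22) was 314, 115, 7, 2181 and 392 to 2620, and that from KO-L3D (8) was 84, 282, 4, 161 and 44 to 1030. The cause was not tested.

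The X median (-0.26) was -0.21 with limma without a block, -0.20 with the block, and -0.30 to -0.19 leaving out a library. The sign of the fold change was the same in limma without a block for 455 of 455 called genes. Both tests used the same libraries, so this was nearly fixed in advance. Of 30 named genes 24 kept their side of the threshold there, the others being Xlr5a, Xlr5b, C430049B03Rik, Zscan4a, Zscan4c and Zscan4d. With the block 15 kept it, and Pnma3, Col20a1, Xlr3a, Xlr3c, Rab39b, Hs6st2, Ugt8a, Col1a2 and Cyp1b1 also lost their calls. With 2 KO-S3D libraries, a change seen in 1 of them has no second measurement.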
